A study of Mus musculus with 2 samples.

Results

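The regions described here are 315 stretches of the mouse genome in which open chromatin sites away from gene starts lay close together in embryonic liver. They were chosen by the positions of the DNase-seq peaks of technical replicate 7. Of its 86036 peaks, 83870 were on autosomes and 48315 of those lay more than 1 kb from every GENCODE transcript start, and are called distal here. Neighbouring distal peaks were joined into a chain when their centres were 12.5 kb or less apart, which gave 27186 chains, single peaks included. The 315 chains of 8 or more peaks are called clusters and hold 3369 peaks, or 6.97% of the distal peaks, within 10.8 Mb or 0.440% of the autosomal length. Because the number and spacing of peaks selected them, their peak number, length and density are descriptions.

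DNase-seq maps open chromatin by sequencing the places where the enzyme DNase I cuts DNA in nuclei. The sample was liver of B6NCrl mouse embryos at embryonic day 11.5, with males and females pooled. The labels name no treatment and no altered gene. Both libraries, technical replicate 7 and technical replicate 1, are technical replicates of 1 biological sample, so no test across animals was possible, and intervals printed here cover counting error only.

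Active genes are often flanked by several separate enhancers, and dense groups of enhancers are known near genes that set a cell's identity. At this stage the liver is becoming the main site of red cell formation, and red cell precursors share the organ with hepatoblasts, the precursors of hepatocytes and bile duct cells. In red cell precursors the factors GATA1, TAL1 and KLF1 act together at enhancers, often where a TAL1 site stands a fixed distance from a GATA site. CTCF, in contrast, marks boundaries and anchors of chromatin loops in most cell types. In this whole tissue, a weak site in every cell and a strong site in few cells cannot be told apart.

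The following 150 bp windows, on the plus strand of mm10, are chosen examples of sequence under peaks of these clusters. The first 4 lie at genes of blood formation and are peaks found in both libraries, with the letters of red cell or liver factor motifs in capitals. All 4 hold a GATA match, which only 14.8% of the clustered peaks found in both libraries have, so they do not stand for the typical peak. The Tal1 window (chr4:115095872-115096021) is the strongest distal peak of its cluster, 39.5 kb downstream of the Tal1 start, where a TAL1-GATA composite (CTG, 9 bases of any kind, then GATAA) covers a GATA match.
Tal1: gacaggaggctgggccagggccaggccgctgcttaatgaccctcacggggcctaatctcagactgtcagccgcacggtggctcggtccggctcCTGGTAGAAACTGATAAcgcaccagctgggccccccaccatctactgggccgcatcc
The Lyl1 window (chr8:84730859-84731008), 29.5 kb downstream of the Lyl1 start in an intron of the neighbouring gene Nfix, holds GATA matches and a composite, both read here on the minus strand.
Lyl1: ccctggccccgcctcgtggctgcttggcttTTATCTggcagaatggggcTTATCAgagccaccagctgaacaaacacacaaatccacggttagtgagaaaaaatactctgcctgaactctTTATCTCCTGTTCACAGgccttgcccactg
The Gfi1b window (chr2:28602290-28602439), 19.6 kb downstream of the Gfi1b start, holds a pair of GATA matches on opposite strands.
Gfi1b: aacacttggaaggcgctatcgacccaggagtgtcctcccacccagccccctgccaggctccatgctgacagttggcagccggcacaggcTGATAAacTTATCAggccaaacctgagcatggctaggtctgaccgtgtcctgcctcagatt
The Zfpm1 window (chr8:122321753-122321902), in an intron 39.7 kb downstream of the Zfpm1 start, was added after its values were seen, as the strongest shared peak of the largest cluster with a GATA match. The rule used for Tal1, Lyl1 and Gfi1b had picked the cluster's strongest peak, with an HNF4 match and no GATA match, which is not shown.
Zfpm1: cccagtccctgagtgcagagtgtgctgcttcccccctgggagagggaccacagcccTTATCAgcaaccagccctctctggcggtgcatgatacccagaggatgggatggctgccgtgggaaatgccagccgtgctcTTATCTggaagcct
The last window (chr13:21940280-21940429) was also added after its values were seen. It shows a different kind of member, a peak over a gene for an aspartate transfer RNA (tRNA) on the minus strand, 72 bases long and in capitals.
tRNA: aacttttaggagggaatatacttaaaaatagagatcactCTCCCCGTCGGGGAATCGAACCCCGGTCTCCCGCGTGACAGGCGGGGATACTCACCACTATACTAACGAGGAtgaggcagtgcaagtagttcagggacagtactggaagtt

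The clusters held 8 to 29 peaks, with a median of 9, and were 4196 to 101599 bp long, with a median of 33442 bp. Peak density is the authors' deposited signal, the height of cutting at the peak's maximum, in units not given in the sources used here. Summed over its peaks, the density of a cluster ran from 3.68 to 44.6 with a median of 8.32. Peaks covered a median of 8.79% of the span, and the strongest peak held a median of 21.3% of the summed density, so most clusters were neither solid blocks nor 1 strong site with weak neighbours. The rule cut through a continuous range. The 94 chains of exactly 8 peaks had a median length of 26211.5 bp and a median summed density of 6.25, and the 179 chains of 7 just outside had 23811 bp and 5.74.

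Most clusters overlapped a gene body, but the same counts for other spans of this length were not made. A protein-coding gene body overlapped 241 of the 315, a protein-coding start lay inside 146, and 180 had at least 1 peak within 1 kb of a start in their span, which the rule did not count. In 43 clusters the nearest protein-coding start was more than 50 kb away. Of the clustered peaks 43.3% were intronic, 48.9% intergenic and 7.81% exonic, against 50.1%, 43.0% and 6.87% of the 44946 other distal peaks. Clustered peaks had a median GC content of 54.7% against 51.3%, and a median distance to the nearest start of 6863 bp against 9303 bp. Chromosome 11 held the most clusters, 34 or 2.79 per 10 Mb, and chromosome 14 the fewest per length, 0.560 per 10 Mb.

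**Figure D1:**
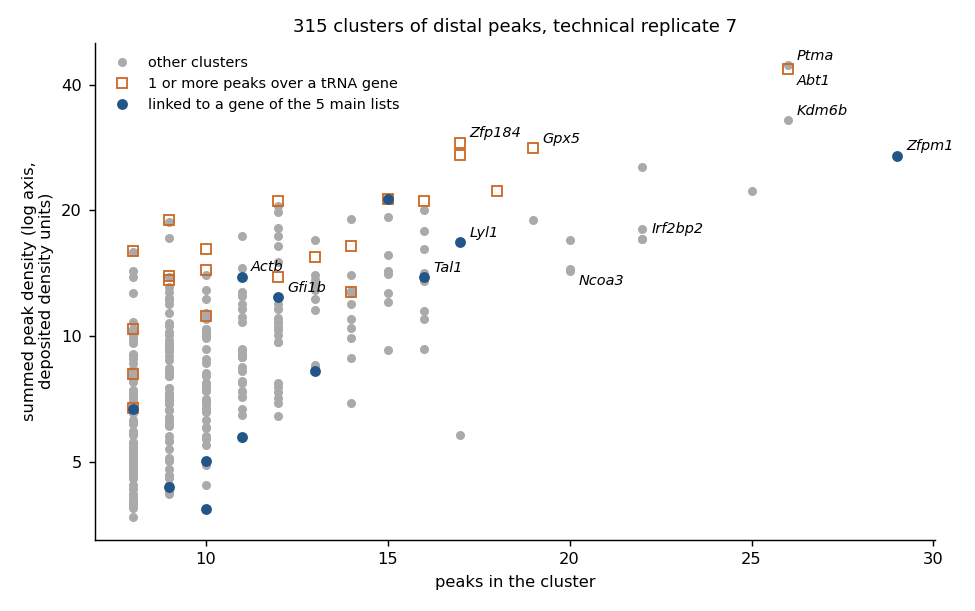
Each of the 315 clusters by its number of distal peaks (horizontal axis) and the sum of their densities (vertical log axis, deposited density units) in technical replicate 7. Open squares hold a peak over a tRNA gene and filled blue points are linked to a gene of the main lists; Zfpm1 has the most peaks (29) and Ptma the highest sum (44.6).

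The largest cluster by peak number lay over Zfpm1, which encodes FOG1, the partner protein that GATA1 needs in red cell and platelet precursors. Its 29 peaks spanned chr8:122273228-122350000, and 28 of them were intronic. Some lie upstream of Zfpm1 and count as intronic only through Gm20388, an annotated read-through gene that joins Gse1 to Zfpm1. Densities in technical replicate 7 ran from 0.549 through a median of 0.749 to 2.24, so the cluster was built from many peaks of moderate height. In technical replicate 1, 22 of the 29 peaks (75.9%, Clopper-Pearson 56.5 to 89.7%) overlapped a peak and all 29 lay in a hotspot, a broader region of raised cutting. Over all distal peaks these shares were 28.7% and 51.1%. The distal peaks in the span summed to a density of 27.0 in technical replicate 7, against 31.7 in technical replicate 1. GATA motifs stood in 12 of the 29 peaks, against 21.7% of all distal peaks, and none of the 29 held the TAL1-GATA composite. The GATA count was above those of all other clusters, but this cluster also had the most peaks. By share some smaller clusters were higher, with 8 of 10 peaks nearest Klf3 and 5 of 9 at Fli1. The strongest peak, 8.8 kb upstream of the Zfpm1 start, held a CTCF and an HNF4 match and measured 2.24 in technical replicate 7 and 2.18 in technical replicate 1. The next, whose sequence is shown above, measured 1.77 and 2.52.

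The highest summed density, 44.6, belonged to the 26 peaks around Ptma (chr1:86470675-86538744), which encodes prothymosin alpha, a small nuclear protein of dividing cells. Of these, 16 were found in technical replicate 1, where the distal peaks summed to 41.5. Its strongest peak, 39.1 kb upstream of the start, measured 8.06 in technical replicate 7 and 5.22 in technical replicate 1. The next, 1.3 kb upstream, held a CTCF match and measured 5.75 and 5.78. CTCF matches stood in 5 of the 26 peaks and GATA matches in 3, against 18.4% and 21.7% of all distal peaks. At Zfpm1 the counts were 2 and 12 of 29. These are counts of few peaks, and the difference was not tested.

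Of the other clusters with the most peaks, the one at Abt1 (26 peaks) has 17 of its peaks over tRNA genes and is described with the tRNA clusters. The Kdm6b cluster (chr11:69390439-69457665), at the gene of a histone H3 lysine demethylase, had 26 peaks with a sum of 32.9, and 13 were shared. The cluster at chr8:120445310-120543371 had 25 peaks, all intronic in Gse1, with a sum of 22.2 and 11 shared, and its nearest protein-coding start was that of Gins2, 45933 bp away. On chromosome 11, the cluster at Nr1d1 and Thra, which encode nuclear receptors of the circadian clock and of thyroid hormone, had 22 peaks (sum 25.4, 13 shared). The cluster at Rara, the retinoic acid receptor alpha gene, also had 22 (sum 18.0, 7 shared). Those at Irf2bp2 and Nol4l had 22 peaks each, both with a sum of 17.1, and 12 and 7 shared. The Tle3 cluster had 20 peaks (sum 17.0, 7 shared). The Ncoa3 cluster, also of 20 peaks, was the longest of all at 101599 bp. The Msrb3 cluster, with 12 peaks, is named for its length of 82723 bp.

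Clusters at other blood regulators were smaller. The cluster at Tal1, which encodes a master regulator of blood formation, had 16 peaks over chr4:115038327-115101937, with densities from 0.385 through 0.743 to 2.31, and 6 shared. The peak 39.5 kb downstream of the start, shown above, was highest in both libraries, at 2.31 and 2.82. An erythroid enhancer of Tal1 is known downstream of the gene, and whether this peak is that element was not tested. A second composite of the Tal1 cluster lay 8.0 kb upstream of the start, in a peak of density 0.669 found in technical replicate 7 only. The Lyl1 cluster (chr8:84702978-84745898), which holds the TAL1-related gene Lyl1 and runs into Nfix, had 17 peaks with densities from 0.397 through 0.673 to 2.62, and 10 shared. Its composite peak, shown above, measured 2.21 in technical replicate 7 and 1.96 in technical replicate 1.

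The Gfi1b cluster (chr2:28578059-28617880) had 12 peaks, 5 with a GATA match and 2 with a composite, and 3 shared. Gfi1b encodes a repressor needed for red cell and platelet precursors. All 3 shared peaks lay 19.6 to 29.0 kb downstream of the start, and measured 1.85, 1.79 and 1.75 in technical replicate 7 and 2.18, 1.93 and 1.53 in technical replicate 1. The fourth strongest, at 1.64 with a CTCF match, was found in technical replicate 7 only. At Meis1, a homeobox gene of blood stem cells, the 13 peaks (chr11:18876456-18898503) stood at the 3′ end of the gene, at least 120 kb from its start, and 5 were shared. The span held 3 distal peaks of technical replicate 1. At Fli1, an ETS factor gene of platelet, endothelial and progenitor cells, 1 of 9 intronic peaks was shared and 5 held a GATA match.

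**Figure D2:**
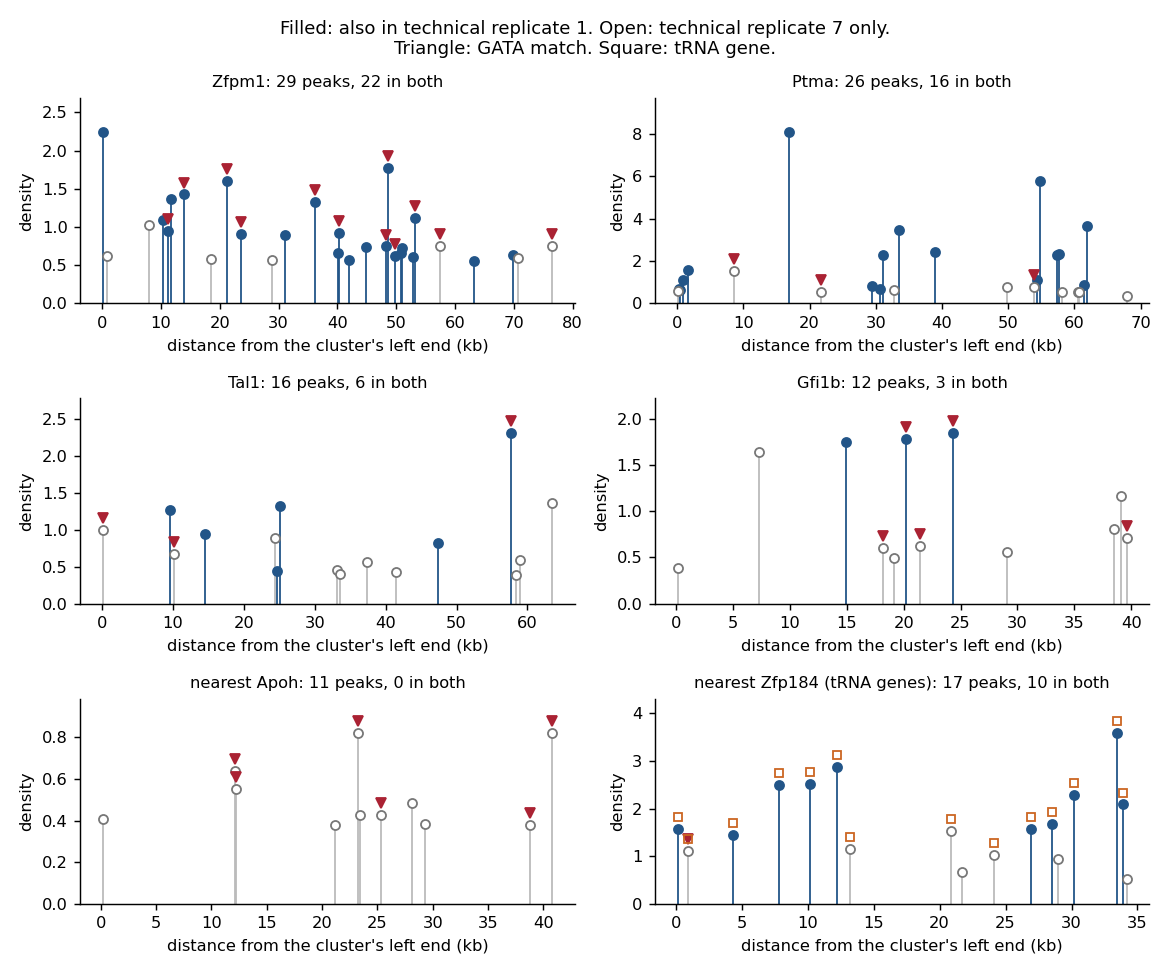
Peak density in technical replicate 7 (vertical axes, deposited density units) against distance from the cluster's left end in kb (horizontal axes) for 6 clusters; filled points overlap a peak of technical replicate 1, open points do not, triangles mark a GATA match and squares a tRNA gene. Zfpm1 has 22 of 29 peaks in both libraries, and the cluster nearest Apoh has 0 of 11.

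Genes were linked to a cluster when their body overlapped its span or their start was the nearest to it, which took in 2.23% of 20780 autosomal protein-coding genes. For red cell genes 2 of 42 were linked, Tal1 and Zfpm1, and for blood progenitor genes 4 of 25, Lyl1, Meis1, Fli1 and Gfi1b. For hepatoblast genes 3 of 36 were linked, Apoa1, Apoh and Foxa1. For mature hepatocyte genes the count was 0 of 24, and for housekeeping genes 3 of 25, among them Actb and Ywhaz. Of lists for other cells, 0 of 12 megakaryocyte, 1 of 15 macrophage (Fcgr3), 1 of 15 endothelial (Egfl7), 0 of 18 mesenchymal and 0 of 15 neuronal genes were linked. These counts are small and describe the lists. They also move with the rule: with a minimum of 5 peaks, 10 red cell and 6 progenitor genes were linked, and with clusters of technical replicate 1, 1 and 0.

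Open sites near a gene were much more common than clusters. Of all autosomal protein-coding genes 80.8% had a distal peak within 50 kb of their start, with a median of 3, and 51.0% had one shared by both libraries. All 42 red cell genes had a distal peak there, with a median of 5, and 33 had a shared one. For the 25 housekeeping genes the numbers were 25, a median of 6, and 20, and for the 15 endothelial genes 15, a median of 6, and 8. The largest chain within 50 kb of the adult beta-globin gene Hbb-bs had 7 peaks, just under the minimum, and that of the alpha-globin gene Hba-a1 had 5. Of the distal peaks within 50 kb, 1 of 12 and 3 of 9 were shared. Near the red cell list gene Nfe2 the largest chain had 9 peaks and so was a cluster, but the gene was not linked to it. The largest chains at Gypc, a red cell membrane protein gene, and Fech, the gene of the enzyme that puts iron into haem, also had 7, whereas that at Klf1 had 3. Among liver genes, 35 of 36 hepatoblast genes had a distal peak within 50 kb and 19 had a shared one. The chains at Alb and Afp, the albumin and alpha-fetoprotein genes, had 3 peaks each, and neither gene had a shared peak within 50 kb. Neuronal genes, a list for cells outside the liver, had a median of 2 distal peaks within 50 kb, and 6 of 15 had a shared one.

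The 3 clusters linked to hepatoblast genes were weak. The one nearest Apoh, an apolipoprotein gene, lay 79178 bp from its start within introns of Prkca (chr11:108223250-108264176), so the link rests on distance alone. Its 11 peaks had densities of 0.377 to 0.821 and 0 were in technical replicate 1 (Clopper-Pearson 0 to 28.5%, with touching peaks counted as separate). It held 6 GATA matches and 2 composites. The one nearest Apoa1, the main HDL apolipoprotein gene, lay in introns of Sik3, 11341 bp away, with 10 peaks of 0.369 to 0.673 and 2 shared. That at Foxa1, a pioneer factor of liver, had 10 peaks of 0.336 to 0.465, the lowest median of the linked clusters at 0.381, and 2 shared. These 2 touch each other, and the span held 1 distal peak of technical replicate 1.

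Clusters linked to housekeeping genes included one with a high median peak density. The one upstream of Actb, the beta-actin gene (chr5:142909240-142947733), had 11 peaks of 0.477 to 2.39 with a median of 1.42, and 7 shared. The one nearest Ywhaz lay 62933 bp from its start and had 8 peaks, 4 shared. The Actb median was above those of every blood and liver cluster named above, Zfpm1 (0.749) and Gfi1b (0.757) included. By summed density Actb, at 13.9, ranked only 55 of 315, below Zfpm1 (27.0) and above Gfi1b (12.4).

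Transfer RNA genes, which RNA polymerase III transcribes and which the GENCODE starts used by the rule do not include, formed a distinct group of clusters. Of the 204 distal peaks that overlapped a RefSeq tRNA gene, 126 (61.8%) stood in clusters, where they made up 3.74% of peaks against 0.174% of other distal peaks. They fell in 22 clusters, and in 10 of these at least as many peaks overlapped a tRNA gene as did not. Clusters with a tRNA peak had a median summed density of 16.1 against 8.10 for the other 293, and 9 of the 20 clusters with the highest sum were among them. They also had more peaks to sum, with a median of 12 against 9 over all clusters. A tRNA peak in a cluster had a median density of 1.88 against 0.633 for the other clustered peaks. Of the 126, 98 (77.8%, Clopper-Pearson 69.5 to 84.7%) were in technical replicate 1, against 40.7% of other clustered peaks and 28.7% of all distal peaks. The median density of the tRNA peaks falls in the highest density quartile of distal peaks. In that quartile 77.8% of all clustered and 71.8% of other distal peaks were shared, so the tRNA share was close to that of peaks of similar strength. These comparisons were chosen after the data were seen.

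Of the tRNA clusters, 6 lay on chromosome 13 between positions 21158877 and 23532646, among the histone genes, and held 64 of the 126 tRNA peaks. The largest, at Abt1 (chr13:23396940-23467231), had 26 peaks, 17 over tRNA genes, and the second highest sum of all clusters, 43.7. It was found less fully in technical replicate 1, with 8 of 26 peaks. The one nearest Zfp184 (chr13:21907019-21941284) had 14 tRNA peaks of 17, a sum of 29.1 and 10 shared. Its strongest peak, over the tRNA gene shown above, measured 3.59 and 3.45 in the 2 libraries. The one nearest Gpx5 had 12 tRNA peaks of 19 (sum 28.2, 11 shared). On chromosome 19, the cluster nearest Olfr1423 (chr19:12002204-12016024) had 8 tRNA peaks of 17 and 15 shared. On chromosome 1, the Fcgr3 cluster, linked to the macrophage list, held 4 tRNA peaks of 18, so that link also touches a tRNA region.

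Clustered peaks were found again in technical replicate 1 more often than other distal peaks. Among all autosomal distal peaks 28.7% overlapped a peak of technical replicate 1 by at least 1 bp. Among clustered peaks it was 1418 of 3369 (42.1%, Clopper-Pearson 40.4 to 43.8%) and among the other distal peaks 12470 of 44946 (27.7%, 27.3 to 28.2%). The share rose with chain size, from 20.8% of single peaks through 28.7%, 32.5% and 37.0% in chains of 2, 3 to 4 and 5 to 7, to 39.7% in chains of 8 to 11 and 45.9% in chains of 12 or more. In hotspots of technical replicate 1 the shares were 67.1% of clustered and 49.9% of other peaks. In footprints, short stretches protected from cutting, they were 52.1% and 46.3% in technical replicate 1 but 58.3% and 62.9% in technical replicate 7.

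Part of this difference went with peak strength. The median density was 0.653 for clustered and 0.537 for other peaks, and other peaks weighted to the density deciles of the clustered ones were shared in 37.0%. Within density quartiles the clustered share was 8.33% against 4.56%, 17.0% against 10.7%, 34.9% against 26.0%, and 77.8% against 71.8%. Leaving out the tRNA peaks, the share was 40.7% for clustered peaks and 35.2% for density-weighted others. Touching peaks also count separately: 11.9% of clustered and 4.80% of other peaks lay 20 bp or less from a neighbour and can meet the same peak of technical replicate 1. With peaks 100 bp or less apart merged, an alternative added after the data were seen, the shares were 39.8% and 27.2%.

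The direction was the opposite when clusters were built from technical replicate 1 instead. Its 14146 distal peaks gave 51 clusters with 510 peaks, of which 83.3% overlapped a peak of technical replicate 7, against 94.4% of its other distal peaks. So the higher share of clustered peaks holds for clusters of technical replicate 7, which has more peaks, and not for both libraries. Of those 51 clusters 41 overlapped one of the 315. The 10 that did not lay nearest Irx5 (16 peaks, 4 shared), Osr2, Foxc1, Foxo3, Hes7, Mrtfb, Sema6b, Bahd1, Zfp36 and 4933402J07Rik (10 peaks, 10 shared).

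**Figure D3:**
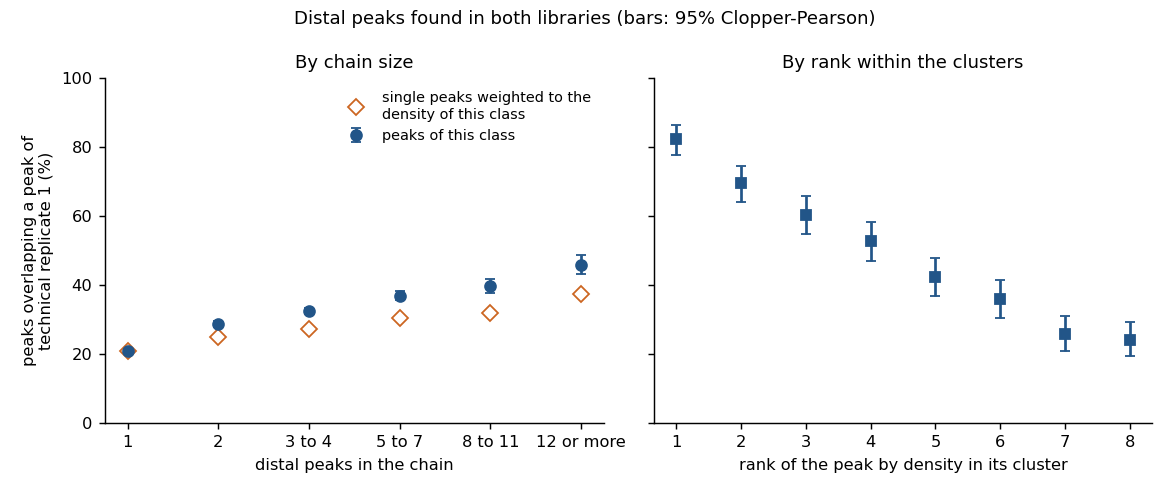
Share of distal peaks of technical replicate 7 that overlap a peak of technical replicate 1 (vertical axis, percent, bars 95% Clopper-Pearson), by the number of peaks in the chain (left) and by the rank of the peak's density within its cluster (right). The filled points rise from 20.8% to 45.9% with chain size, above single peaks weighted to the same densities (open diamonds), and fall from 82.5% at rank 1 to 24.1% at rank 8.

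Within clusters the strongest peak was the one most often seen in both libraries. It was shared in 260 of 315 clusters (82.5%), and the share fell with each step of rank to 69.5%, 60.3%, 52.7%, 42.2%, 35.9%, 25.7% and 24.1% at rank 8. Of the stronger 50% of each cluster's peaks 62.9% were shared and of the weaker 50% 22.7%. Per cluster, the shared percentage had a median of 38.5% and ran from 0 to 100. At least 50% of the peaks were shared in 122 clusters and none in 24. Across the 315 clusters, the summed density in technical replicate 7 and that of distal peaks of technical replicate 1 in the same span had a Spearman correlation of 0.865, and 0.848 over the 293 clusters with no tRNA peak. Both sums come from the same DNA sample and the same spans, so this describes technical agreement.

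Motifs were searched on both strands in the central 150 bp of each peak, as exact letters with N for any base. The GATA motif, searched as AGATAA and separately with T as its first letter as TGATAA, overlaps the composite where the letters allow, and matched 19.2% of clustered and 21.9% of other distal peaks, and 10.4% of 1919 windows between peaks of a cluster. The ratio was 0.879 (95% interval 0.819 to 0.945), and 1.06 (0.983 to 1.13) when other peaks were weighted to the clusters' GC content. The interval of the weighted ratio uses the standard error of the unweighted ratio, so it is approximate. The GATA ratio was 0.935 (0.864 to 1.01) with peaks 100 bp or less apart merged, and 0.957 (0.916 to 1.00) with a minimum of 5 peaks. The interval includes 1 in all of these alternatives and lay below 1 in the others that recompute motifs. The composite matched 2.52% and 2.71%, a ratio of 0.932 (0.750 to 1.16), and 0.469% of the windows between peaks. The composite's interval includes 1, and its ratio was above 1 in 4 of 15 other settings, at 1.10 with GC weighting. Both motifs were more frequent in clustered peaks than between them.

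CTCF matches were fewer in clusters. They stood in 11.2% of clustered and 18.9% of other distal peaks, a ratio of 0.594 (0.539 to 0.655), against 1.41% between peaks. The ratio was 0.662 with other peaks weighted to the same GC content and 0.512 with them weighted to the same density. Matches to CCNCACCC, the box bound by KLF factors, were more frequent, at 11.0% against 7.36%, with a ratio of 1.49 (1.35 to 1.65) that fell to 1.17 after GC weighting. It was 1.22 (0.980 to 1.52) with peaks joined at 5 kb, 1.12 (0.894 to 1.40) in the stronger 50% of distal peaks and 1.16 (0.902 to 1.49) in clusters of technical replicate 1, so the interval includes 1 in these 3 settings. For the SP box GGGGCGGGG the ratio was 1.72 and 1.04 after weighting, and for the ETS letters CCGGAAG 1.37 and 1.08. Of the liver factor motifs, HNF4 letters (CAAAGNNCA) matched 4.57% against 4.68%, and FOXA letters (TGTTTNC) 12.5% against 13.9%. The intervals of these ratios were 0.832 to 1.15 for HNF4 and 0.822 to 0.988 for FOXA, whose ratio turned from 0.901 to 1.04 with GC weighting. The C/EBP letters (TTGCNNAA) had a ratio of 0.868 (0.754 to 0.998), which turned to 1.01. The NR5A2 letters (TCAAGGTCA) matched 16 clustered peaks, a ratio of 1.67 (0.993 to 2.80) and 1.90 with GC weighting, and HNF1 letters matched 1.

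Counted per cluster, 263 of the 315 had a GATA match, 214 a CTCF match, 207 a KLF box, 227 a FOXA match and 117 an HNF4 match. A composite stood in 70 clusters, 49 of which also had CTCF, and 14 clusters had 2 or more. Of these 14, Tal1, Gfi1b and the one nearest Apoh are described above, and the others had Mrpl23, Ahdc1, Asic4, Dnajb12, Prr15l, Klf3, Rbm38, Jmjd1c, Abca1, Syne3 and Enc1 as their nearest gene. The highest number, 3 composites in 9 peaks, lay nearest Jmjd1c, 167250 bp from its start. All distal peaks held the composite at 2.69% and GATA at 21.7%.

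**Figure D4:**
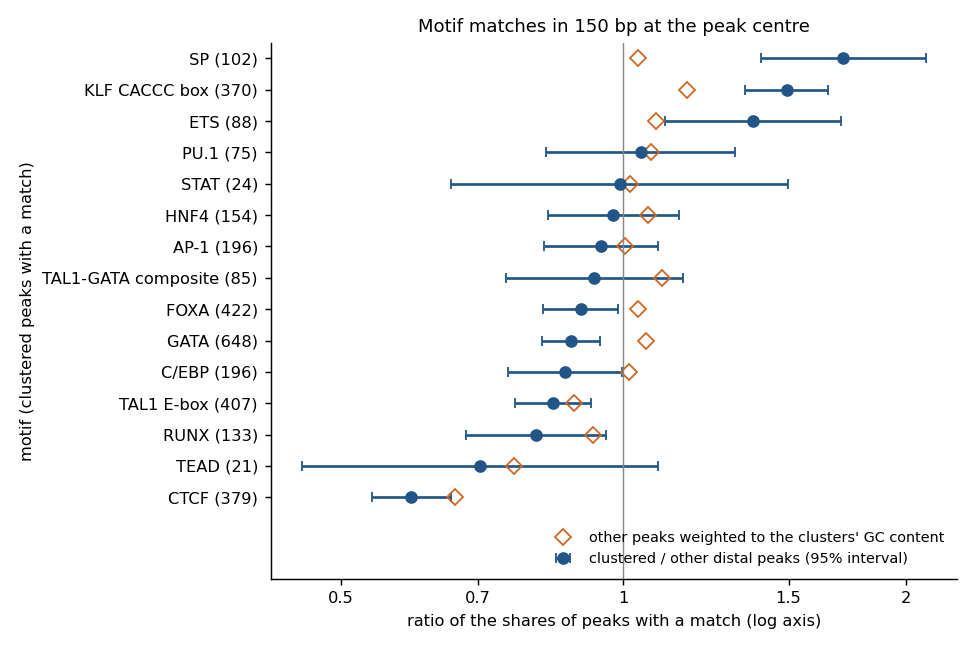
Ratio of the share of peaks with a motif match in clusters to that in other distal peaks (horizontal log axis), for motifs matched in at least 20 clustered peaks (number in brackets). Filled points carry 95% intervals and open diamonds use other peaks weighted to the clusters' GC content; CTCF lies at 0.594 and KLF at 1.49, and the GATA ratio moves from 0.879 to 1.06 with weighting.

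The motifs also differed between the peaks found in both libraries and those found in technical replicate 7 alone. Among clustered peaks, GATA matched 14.8% of the 1418 shared and 22.5% of the 1951 others, whereas CTCF matched 13.5% and 9.58% and the ETS letters 3.88% and 1.69%. Median GC content was 57.3% and 52.7%. Ranked by GC content and cut into 3 equal groups, clustered peaks of the lowest group matched GATA in 23.8% of shared and 32.0% of other peaks, those of the middle group in 19.2% and 19.0%, and those of the highest in 8.62% and 8.67%. In the lowest group the Clopper-Pearson intervals, 18.9 to 29.3% for shared and 28.9 to 35.3% for other peaks, overlapped slightly. Median GC content still differed there, at 49.3% and 48.0%. The GATA shares were close in the middle and highest groups.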

How the data were processed

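The authors deposited peak lists, hotspots and footprints for each library on mm10; the aligner, peak caller and depth were not given in the sources used here. Per the file headers and values, peaks carry a signal (the density of cuts at the maximum), hotspots a −log10 value deposited by the authors, and the footprints of technical replicate 1 a constant deposited by the authors and read as a p-value threshold. These last 2 values were not used, only the positions. Distal peaks (over 1 kb from any GENCODE start) were joined at centre distances of 12.5 kb or less, and chains of 8 or more kept. Peaks were shared when they overlapped by at least 1 bp, so several peaks that meet the same peak of the other library each count. Bases, tRNA genes and soft-masking came from RefSeq's GRCm38. Intervals are 95% Clopper-Pearson for shares and log-normal for ratios. The interval of a GC-weighted ratio uses the standard error of the unweighted ratio. The steps were tested on simulated peaks, with pandas 2.3.3, scipy 1.17.1 and pysam 0.24.0. Clusters were named if among the 10 with most peaks, the 5 highest sums or the 3 longest, or linked to one of 5 gene lists. The Tal1, Lyl1 and Gfi1b sequences are the strongest shared peak with a red cell or liver motif. Windows picked by that rule at other named clusters are not shown, and the Zfpm1 and tRNA sequences were chosen after the data were seen. The result for 1 linked gene is not reported here. Members, lists and motifs were chosen with earlier results of these data known.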

Additional observations from a re-analysis of the deposited data

How the results depend on the processing

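The rule was varied in 18 ways, 2 of them chosen after seeing the data. The limits are that there is 1 biological sample, depth is not known, and peaks that touch, share a library and share a threshold are not independent. In what follows, values come in the order number of clusters (315), percent of distal peaks in them (6.97), median length in bp (33442), percent of clustered and of other peaks overlapping the other library (42.1 and 27.7), members of the 5 main lists linked (12), and the composite, GATA and CTCF ratios (0.932, 0.879 and 0.594); only values that moved beyond their interval or 1.5-fold are given. Joining at 25 kb gave 908 clusters, 22.6%, 71253 bp, 37.9% and 26.1%, 32 genes, GATA 0.957 and CTCF 0.750. Joining at 5 kb gave 81 clusters, 1.66%, 11997 bp, 55.4% and 28.3%, 5 genes, composite 0.367, GATA 0.543 and CTCF 0.533. A minimum of 5 peaks gave 1362 clusters, 19.2%, 20295.5 bp, 38.8% and 26.4%, 31 genes, GATA 0.957 and CTCF 0.676. A minimum of 12 gave 86 clusters, 2.71%, 45.9% and 28.3%, 6 genes, GATA 0.814 and CTCF 0.50. The stronger 50% of distal peaks gave 80 clusters, 3.47%, 63.3% and 48.8%, 5 genes, composite 0.712, GATA 0.790 and CTCF 0.436. The longer list of technical replicate 7 gave 747 clusters, 12.4%, 31.7% and 20.9%, and 24 genes. A distance of over 2.5 kb from a start gave 172 clusters, 4.33%, 26.4% of other peaks shared and CTCF 0.525. Starts of basic transcripts gave 8.40% and 28.8% of other peaks shared. The longer list of technical replicate 1 gave 53.0% and 36.9% shared, and an overlap of 50% of the shorter peak 39.9% and 27.0%. Weighting to GC content gave CTCF 0.662 and GATA 1.06, with an approximate interval for GATA that includes 1. Without tRNA peaks 6.62% of distal peaks were in clusters, and with peaks 100 bp or less apart merged 5.53%, with 39.8% and 27.2% shared. Clusters from technical replicate 1 alone numbered 51, with 3.61% of its distal peaks, 18585 bp, 83.3% and 94.4% shared, 2 genes, composite 0.311, GATA 0.632 and CTCF 0.334. The clustered share was above that of other peaks in 13 of the 14 settings that recompute it, this one being the exception. The CTCF ratio was below 1 and the KLF ratio above 1 in all 15 that recompute motifs, and the composite ratio was above 1 in 4 of them. The causes were not tested. No paired analysis was possible because both libraries come from 1 biological sample and no second group exists.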

Other observations

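In 24 clusters, with 219 peaks, no peak of technical replicate 1 was met. Their peaks were weaker, with a median density of 0.489, and 72.6% were intronic, against 0.829 and 32.0% in the 122 clusters with at least 50% of the peaks shared. GATA matched 32.9% of the 219 peaks (Clopper-Pearson 26.7 to 39.5%) and 14.4% of the 1335 peaks of those 122 clusters, and the composite 4.57% and 1.35%. CTCF matched 5.94% and 11.5%. Of the 219 peaks, 63 lay in a hotspot of technical replicate 1 and 25 overlapped its longer peak list. The median GC content was 51.3% and 56.0%.

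In 5 clusters, peaks covered, or repeats soft-masked, more than 40% of the span, a limit set after the data were seen. The 8 peaks at Tchh, the gene of the hair follicle protein trichohyalin (chr3:93443578-93447773), were all exonic and covered 56.3% of 4196 bp, and 7 were shared. On chromosome 12, 17 peaks covered 72.7% of 7420 bp, 272441 bp from the nearest protein-coding start, that of Gm21863. The cluster over Tmem267 nearest Ccl28 (chr13:119596381-119604671) had 22.0% of its span covered and 65.0% of its bases soft-masked as repeats, and was the 1 cluster with every peak shared. The other two lay nearest Vmn1r238 (14 peaks, 50.8% of 6712 bp covered, 6 shared) and at Tnrc18 (11 peaks, 43.6% of 7811 bp covered, 9 shared). The part that mapping to repeated sequence has in these values was not tested.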
